A study of Mus musculus with 6 samples.

Results

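The mitochondrial ribosomal protein genes were taken as every gene whose symbol begins with Mrpl or Mrps followed by a digit, and 76 of the 13405 listed genes matched. The Mrpl genes are named for the large ribosomal subunit and the Mrps genes for the small one. By what is known of the assembled ribosome, 48 of the 76 encode large-subunit proteins, Mrps30 and Mrps18a among them, and 26 encode small-subunit proteins. The other 2 are Mrps36, whose product is now known as a subunit of the 2-oxoglutarate dehydrogenase complex, and Mrpl48-ps, a processed pseudogene of Mrpl48. RNA was sequenced from 4T1 cells, a mouse mammary carcinoma line from the Balb/c strain grown in vitro, in 3 libraries with a vector control and 3 libraries labelled ATM KO. ATM is a kinase of the response to broken DNA, and the series title names ATM inhibition, leakage of mitochondrial DNA and cGAS-STING activation. The labels do not say how the knockout was made, whether the ATM KO cells are 1 clone, or whether libraries were made from separate cultures. P-values here therefore measure only how these libraries varied, and that variation may be technical.

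Mitochondria keep ribosomes of their own, which translate the few membrane subunits of the respiratory chain and ATP synthase encoded by mitochondrial DNA. The 2 ribosomal RNAs of this ribosome are transcribed from mitochondrial DNA, whereas every one of its proteins is encoded in the nucleus, made in the cytosol and imported. Many of the proteins have a bacterial counterpart and the others were added in mitochondria, and the nuclear genes are known to share promoter elements read by ETS-family factors, YY1 and NRF1.

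The genes carried some short promoter elements at different shares from other expressed genes. RefSeq promoter windows, from 250 bases before to 50 bases after a start on GRCm38.p6, were found for 66 of the 76 genes, which have 72 windows. The YY1 letters AAGATGGC, searched on both strands, were present in a window of 12 of the 66 genes (18.2%), against 5.61% of tested coding genes and 3.19% of all genes of the table. The ETS letters CCGGAAG were present in 23 (34.8%), against 21.4% and 9.93%. For the NRF1 core GCATGCGC the shares of genes were 12.1%, 6.45% and 3.05%. The E-box CACGTG was present in 5 genes (7.58%), against 12.1% and 8.09%, and the GC box GGGCGG in 33 (50%), against 71% and 38.2%. Counted by window instead of by gene, the E-box was at 9.72% against 10.1% for tested coding genes, hardly apart, and the GC box at 52.8% against 63.7%. By window YY1 was at 16.7% against 4.56%, ETS at 31.9% against 18.1% and the NRF1 core at 11.1% against 5.46%. Matches of different elements were counted separately even where they overlap, windows of 1 gene can overlap each other, and a match describes letters, not a bound site.

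Of the 12 YY1 matches, 8 lay at or after the start, all of them in the AAGATGGC direction on the gene's strand. In 6 of these 8 the letters ATG inside the match were an annotated start codon in GENCODE M21, so the element and the first codon occupied the same bases. Among the 230 such matches, at or after a start and in this direction, in windows of tested coding genes, 147 (63.9%) had an annotated start codon there. The following sites, 5′ to 3′ on the gene's strand, show this arrangement in 4 genes whose values follow, with AAGATGGC in capitals.
Mrps7: cagcggccAAGATGGCtgcccccg
Mrps18a: tgcgttccAAGATGGCggccctca
Mrps27: tgcgctccAAGATGGCggctccca
Mrps24: gccggcccAAGATGGCgtggtc

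On GRCm38.p6 these lie at chr11:115604150-115604173 (plus strand), chr17:46111007-46111030 (plus), chr13:99344792-99344815 (plus) and chr11:5707652-5707673 (minus). The 26 ETS matches were centred further upstream, with a median first base at position -22.5 from the start, against position 15 for YY1. Mrps27, Mrps18a and Mrps12 held both elements, and Mrpl3 held an ETS match but no YY1 match. Their ETS sites are printed with CCGGAAG, or its reverse complement CTTCCGG, in capitals.
Mrps27: taggaccaCTTCCGGcggaggcgg
Mrps18a: cccctgctCCGGAAGcggaagtgc
Mrpl3: gaaacggaCCGGAAGtggcccggc
Mrps12: gaggaaccCCGGAAGgggctggag

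They lie at chr13:99344730-99344753 (plus strand), chr17:46110970-46110993 (plus), chr9:105053241-105053264 (plus) and chr7:28741805-28741828 (minus). The median difference between the groups was read for genes with and without an element. On the log2(value + 1) scale, ATM KO minus vector control was -0.12 with the YY1 match (12 genes) and -0.17 without (53 genes), and -0.16 both with the ETS match (23 genes) and without it (42 genes). It was -0.18 with the NRF1 core (8 genes) and -0.15 without, -0.08 with the E-box (5 genes) and -0.17 without, and -0.17 with the GC box (32 genes) and -0.12 without.

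The values compared are normalized read counts, and the reads recovered from them came to between 22494919 and 32341508 per library, with the fewest in ATM KO 3. Of the listed genes 12149 had a mean value of at least 10 and were tested. Atm itself stood at 1978, 1613 and 1519 in the controls and at 1959, 2220 and 1591 in ATM KO, so its RNA level did not separate the groups and does not check the labels. A principal component over all tested genes held 59.4% of the variance. It had vector control 1 (-86.2) and ATM KO 2 (-41.5) at 1 end and ATM KO 3 (50.7) at the other. Between them lay ATM KO 1 (3.19) and vector controls 2 (36.9) and 3 (37.0). Of 8 epithelial and carcinoma markers all were detected, with sums of 89389 to 159504. Of the immune markers only Cd68 was listed, at 227 to 1080.1, the endothelial Cdh5 was at 11.7 or less, and of 6 fibroblast markers 3 were listed.

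Of the 76 genes 75 passed the filter on low values, with means over the 6 libraries from 30.2 to 3096 and a median of 902. The exception was Mrpl23, a protein at the exit of the peptide tunnel, at 5.84, 12.6 and 8.41 across the controls, against 12, 6.37 and 8.96 in ATM KO. Per kilobase of exon, the highest levels were those of the large-subunit genes Mrpl13 (1915), Mrpl42 (1770.0) and Mrpl12 (1733). The lowest tested ones were Mrps33 (24.1), Mrps36 (43.1) and Mrpl48 (51.7). Of the 50-base stretches of Mrpl23, Mrps33 and Mrps36, 11.8%, 13.3% and 17.3% also occur in other genes' transcripts. For Mrpl23 and Mrps36 these are chiefly Mrpl23-ps1 and Mrps36-ps1. Genes at higher levels share stretches too, such as Mrpl24 at 23.3%. Whether shared stretches lowered these values was not tested. Exon length here is the union over a gene's coding transcripts, so a gene with long alternative exons, such as Mrpl48, has a low value on this scale. Exons of other transcripts are left out, so the length is 1617 of 7936 exon bases for Mrpl13 and 679 of 3682 for Mrpl42. Reads counted over the exons left out would raise such values, and the top ranks depend on this choice. Mrpl33 (mean 1495) has no exon length here, as its ID had no match in GENCODE M21, and was not ranked.

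No mitochondrial ribosomal protein gene passed the test between ATM KO and vector control. With limma, 0 of 75 had a Benjamini-Hochberg adjusted p under 0.05, beside 0 of 12149 genes tested (0%), and edgeR's quasi-likelihood test gave 0 of 75 beside 0% as well. DESeq2 called 0 of 75, where it called 84 genes of all tested (0.691%). At an unadjusted p under 0.05 each of the 3 tools gave 1 gene, Mrpl48, on the lower side, where the share of all tested genes was 1.39% with limma, 1.46% with edgeR and 2.16% with DESeq2. On the higher side each gave 0 of 75, beside 2.77%, 2.84% and 3.75%. The smallest adjusted p over the genes was 0.999 with limma, 0.9999 with edgeR and 0.281 with DESeq2.

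The signs of the differences leaned one way. The log2 difference was below 0 for 66 of 75 (88%), where 51.4% of all tested genes were below 0, and above 0 for 9 of 75 (12%), beside 48.6%. The median was -0.17, a value set beside -0.01 for all tested genes, and the range was -0.62 to 0.37. Large-subunit genes were below 0 in 42 of 47 with a median of -0.17, and small-subunit genes in 23 of 26 with a median of -0.18. The 47 tested genes with a bacterial counterpart had a median of -0.17 and the 26 specific to mitochondria -0.18, so neither division of the ribosome separated the values. Every ATM KO library was below every control for 6 of 75 genes (8%), beside 5.48% of all tested genes, and above every control for 0 of 75, beside 5.7%.

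That lean rested on single libraries. Without vector control 1 only 31 of 75 genes were below 0 and the median was 0.04, and without ATM KO 3 the count was 34 with a median of 0.04. Leaving out ATM KO 2 moved it the other way, to 71 genes with a median of -0.37, and 17 genes then had every ATM KO library below every control, where the share of all genes was 10.6%. Without vector control 1, 11 genes lay below and 6 above, beside 21.8% and 19.6% of all genes.

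**Figure D1:**
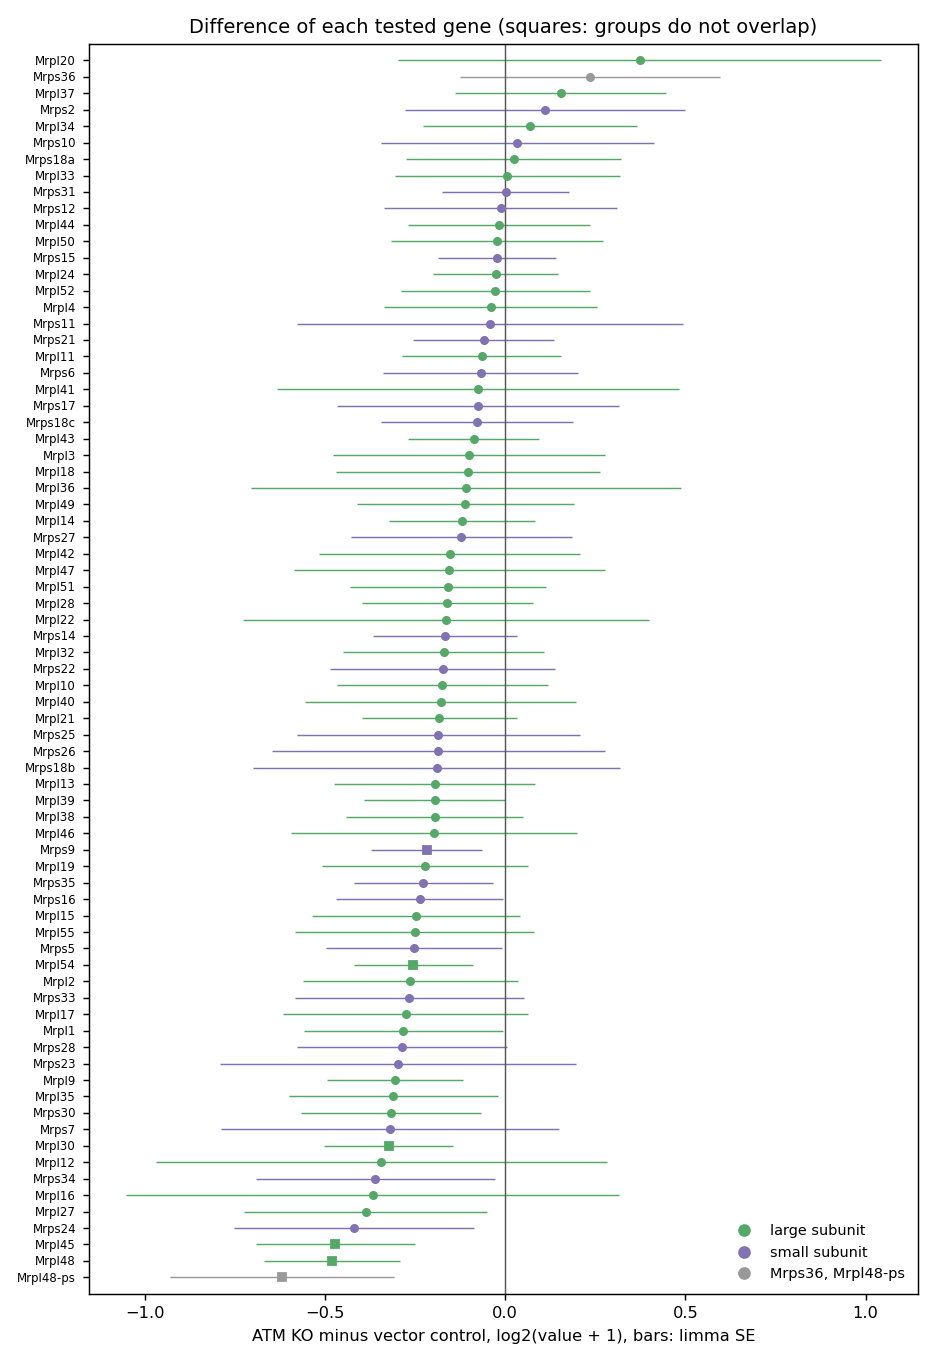
Difference between ATM KO and vector control on the log2(value + 1) scale (x axis) for the 75 tested genes (rows), with the limma SE as bars and squares where the groups did not overlap. Points lie from -0.62 for Mrpl48-ps to 0.37 for Mrpl20, and 66 of 75 are left of 0.

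The larger pattern was between libraries of the same group. The genes as a set were high in vector control 1 and in ATM KO 2 and low in ATM KO 3. The median deviation of a gene from its own mean over the 6 libraries was 0.51 in vector control 1, -0.11 in both other controls, -0.04 in ATM KO 1, 0.28 in ATM KO 2 and -0.42 in ATM KO 3, in log2 units. Vector control 1 held the highest value of 54 of 75 genes (72%), where it did so for 31.9% of all tested genes. ATM KO 3 held the lowest value of 54 of 75 (72%), beside 25.8%, and 41 genes (54.7%) had both, beside 15.7%. The genes took 0.354% of reads in vector control 1, 0.224% and 0.225% in controls 2 and 3, and 0.247%, 0.305% and 0.179% in ATM KO 1 to 3.

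**Figure D2:**
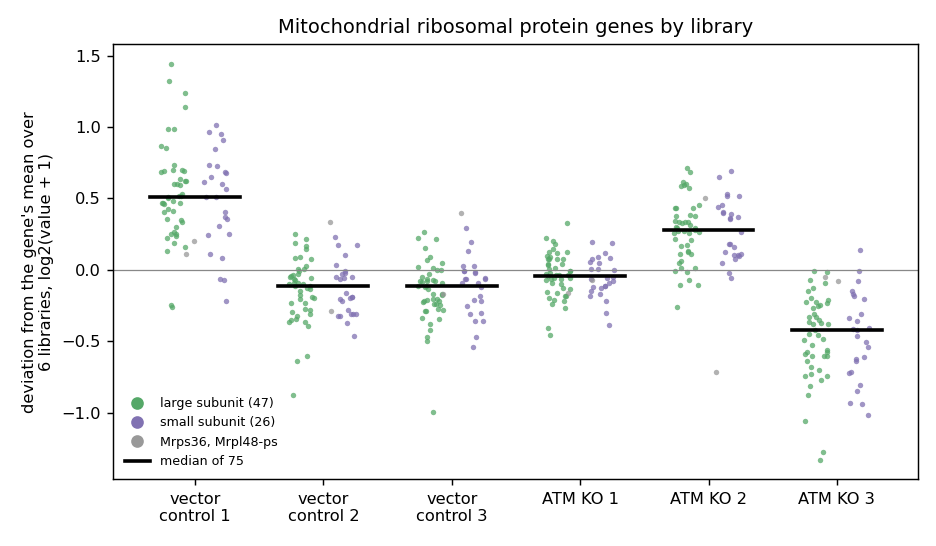
Deviation of each of the 75 tested genes from its own mean over the 6 libraries, in log2 units (y axis), by library (x axis), with the median as a line. In vector control 1 the median is 0.51 and 70 of 75 genes are above their mean, in ATM KO 2 it is 0.28 with 66 above, and in ATM KO 3 it is -0.42 with 1 above.

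The median gap between vector control 1 and the mean of the other controls was 0.67 and that between ATM KO 2 and ATM KO 3 was 0.72, against a median difference between the groups of -0.17. The median SD within the controls was 0.39 for these genes and 0.36 for all tested genes, and within ATM KO 0.39 and 0.32. The spread of single genes was therefore not far from that of other genes, while its direction was shared: the correlation of a gene with the mean of the others, over the same 6 libraries, had a median of 0.93 and was above 0.8 for 55 of 75. The order vector control 1 first, ATM KO 2 second and ATM KO 3 last was found for 37 genes. The share of all tested genes with this order or with such a correlation was not counted, so neither value is shown to be particular to these genes. Vector control 1 and ATM KO 2 also lay at 1 end of the principal component over all genes, and ATM KO 3 lay at the other. ATM KO 3 also has the fewest reads. As a list, the epithelial and carcinoma markers ran the other way, with median deviations of -0.62 in vector control 1, -0.15 in ATM KO 2 and 0.44 in ATM KO 3. Their sums were lowest in vector control 1 and highest in ATM KO 3. The fibroblast marker Pdgfra stood at 129, 474 and 469 in the controls and at 471, 323 and 712 in ATM KO. It was also lowest in vector control 1 and highest in ATM KO 3, while Col1a1 and Col1a2 were at 63.0 or less. Not every epithelial marker followed its list. Krt7 stood at 23598, 18456 and 18566 in the controls and at 36339, 32347 and 19802 in ATM KO. Cdh1 hardly varied, from 16607 to 18627. The part of depth, of that component or of these markers in the pattern was not tested.

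Vector controls 2 and 3 were close to identical. Over these genes the squared difference in their reads, divided by the variance that counting alone gives, averaged 1.07, where counting noise alone gives 1. For the other pairs within a group it averaged 37.6 to 166. The value of 1 is for an average, and counting noise alone gives a lower median. Over all genes the median for controls 2 and 3 was 0.638, where it was 54.2 and 56.1 for the other pairs of controls, and the average was 16.5. The typical gene thus hardly differed between these 2 libraries while some genes did, and they were kept as separate samples; if they come from 1 culture, the controls hold fewer independent samples than 3. Averaging them as 1 sample, an alternative chosen after seeing the data, gave 71 of 75 genes below 0 and a median of -0.27.

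**Figure D3:**
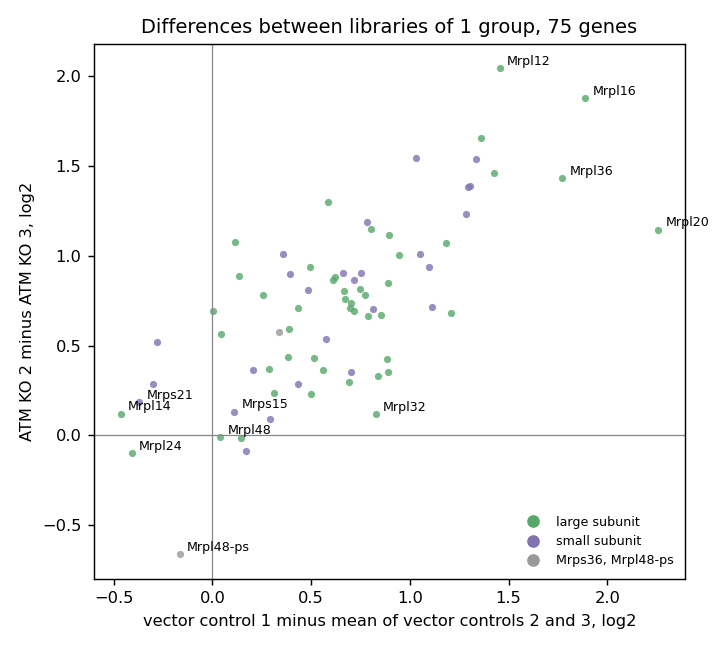
For each tested gene, the log2 value in vector control 1 minus the mean of vector controls 2 and 3 (x axis) and the log2 value in ATM KO 2 minus that in ATM KO 3 (y axis). Most of the 75 points are in the upper right, with Mrpl20, Mrpl16 and Mrpl12 farthest out, and Mrpl24 and Mrpl48-ps are the points below 0 on both axes.

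The 3 widest spreads within groups were those of the large-subunit genes Mrpl16, Mrpl20 and Mrpl12. Mrpl16 encodes a protein beside the tRNA sites near the peptidyl transferase centre. It stood at 1963, 550.4 and 509.6 in vector controls 1 to 3 and at 783, 1097 and 298 in ATM KO 1 to 3. Its highest and lowest values differed 6.58-fold, the widest range of the 75, and its log2 difference of -0.37 (SE 0.68) was well inside the spread. Mrpl12 encodes the flexible stalk protein that recruits translation factors. It stood at 4359, 1621 and 1559 in the controls and at 2115, 3242 and 786 in ATM KO, so the ATM KO libraries spanned 2 of the 3 controls and the groups overlapped (log2 difference -0.34, SE 0.63).

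Mrpl20, whose bacterial counterpart acts early in assembly of the large subunit, stood at 1868, 406 and 374 in the controls and at 939, 1205 and 545 in ATM KO. All 3 ATM KO values lay between vector control 1 and the other controls. Its log2 difference was the highest of the 75, 0.37 (SE 0.67), yet the plain means were nearly equal, at 883 ± 854 and 897 ± 332 (SD, n = 3 each). It was -0.0043 with controls 2 and 3 averaged and 1.13 without vector control 1.

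The other stalk genes swung less. Mrpl10, which anchors the stalk, was at 2037, 1857 and 1910.1 in the controls and at 2009, 2296 and 1089 in ATM KO, so that only ATM KO 3 was low. Mrpl11, at the stalk base, was at 1524, 1008 and 1057 and at 1155, 1255 and 976. Their log2 differences were -0.17 (SE 0.29) and -0.07 (SE 0.22). Both were above 0 without ATM KO 3, at 0.15 and 0.03.

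Near the peptidyl transferase centre, Mrpl2 was at 1802, 1099.9 and 1113 in the controls and at 1253, 1302 and 781 in ATM KO (log2 difference -0.26, SE 0.30). Mrpl3 was at 3122, 1339 and 1365 and at 1650.4, 2119 and 1323 (-0.10, SE 0.38). In both genes vector control 1 was highest, ATM KO 2 was second and ATM KO 3 was lowest, and the groups overlapped. Mrpl44, which has a ribonuclease III-like fold, was at 846, 531 and 514 and at 583, 685 and 558 (-0.02, SE 0.25). Mrpl13 (-0.20, SE 0.28) and Mrpl42 (-0.15, SE 0.36), both among the highest per kilobase, also overlapped between the groups, and Mrpl37 was at 0.15 (SE 0.29).

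A few large-subunit genes stood apart from this swing, at least among the controls. Mrpl45, which sits by the exit of the peptide tunnel and holds the ribosome to the inner membrane, was at 1905, 1922 and 1881 in the controls, which hardly varied (1903 ± 20.9, SD, n = 3). In ATM KO it was at 1574, 1629 and 1006, and ATM KO 3 was low as in the set. The log2 gap between ATM KO 2 and ATM KO 3 was 0.69, near the median of 0.72 over the tested genes. The groups did not overlap, and the log2 difference was -0.47 (SE 0.22) with a limma p of 0.0738 before adjustment and 0.999 after it. The difference lay between -0.60 and -0.25 when each library was left out in turn, and the -0.25 came without ATM KO 3.

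Mrpl48 had the smallest spread of the 75 and was the gene closest to a call. It stood at 336, 318 and 335 in the controls and at 241, 232 and 234 in ATM KO, means of 329.7 ± 9.92 and 236 ± 4.69 (SD, n = 3 each). Every ATM KO library was below every control, and the log2 difference was -0.48 (SE 0.19). The unadjusted p was 0.0419 with limma, 0.0424 with edgeR and 0.00477 with DESeq2, and the Benjamini-Hochberg adjusted p was 0.999, 0.9999 and 0.281. It stayed between -0.51 and -0.47 when each library was left out in turn.

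The reads of Mrpl48 are shared in part with other genes. Of its 50-base stretches 13.7% also occur in another gene's transcripts, chiefly Rab6a, whose exons overlap it on the opposite strand, and whether counting used strand is not stated. Rab6a stood at 4534, 5402 and 5168 in the controls and at 4838, 4503 and 5580 in ATM KO (log2 difference -0.02), so it showed no such separation. The pseudogene Mrpl48-ps, of whose 50-base stretches 44.6% occur in Mrpl48, was at 74.9, 82.2 and 86.2 and at 58.2, 39.3 and 62.7. Its log2 difference was the lowest of the 75, -0.62 (SE 0.31), and its groups did not overlap, but the reads of this pair cannot be told apart from these files.

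Mrpl54, a mitochondria-specific protein, had the second smallest spread, at 833, 799 and 711 in the controls and at 628, 662 and 669 in ATM KO (log2 difference -0.26, SE 0.16). The 2 remaining genes whose groups did not overlap were named after their values were seen. They were Mrpl30 (1697, 1410.4 and 1372 against 1245, 1318 and 1021) and Mrps9, a protein of the small-subunit head (2197, 1818 and 1769 against 1637, 1711 and 1604). Adjusted p was 0.999 with limma for each of these 3.

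**Figure D4:**
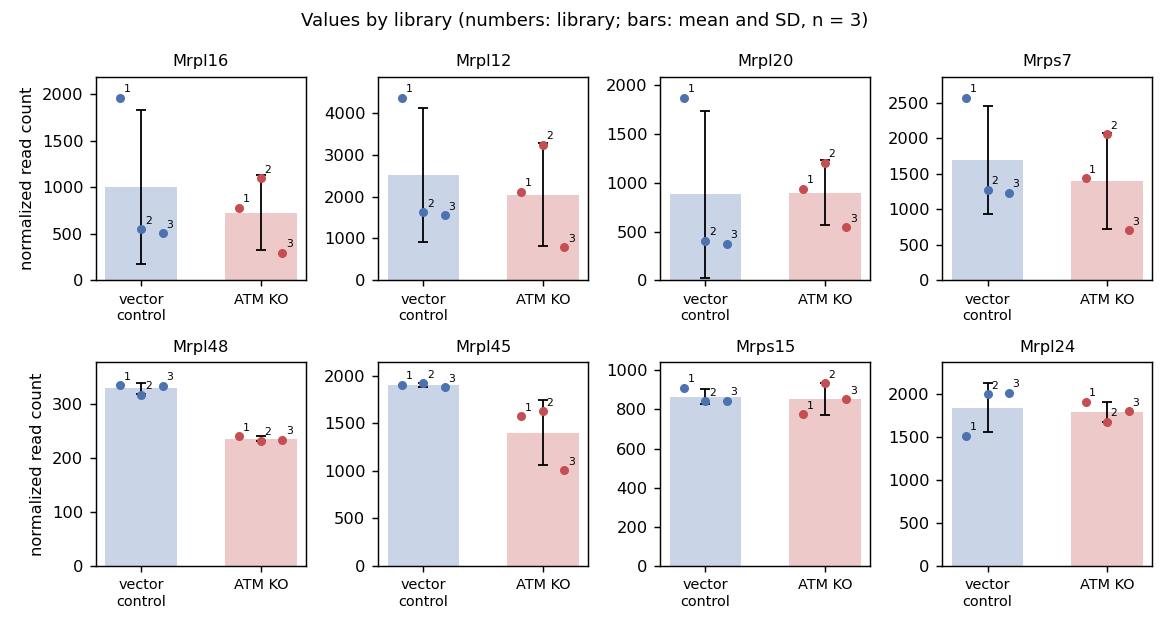
Normalized read counts (y axis) of 8 genes in the vector control and ATM KO libraries, with the library number beside each point and bars at the mean with the SD (n = 3). Vector control 1 is far above controls 2 and 3 for Mrpl16, Mrpl12, Mrpl20 and Mrps7, whereas for Mrpl48 and Mrpl45 the 3 ATM KO libraries lie below all controls.

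In the small subunit, Mrps12, a protein of the decoding centre, was at 352, 255 and 295 in the controls and at 339, 393 and 195 in ATM KO, with a log2 difference of -0.01 (SE 0.32). The highest and the lowest of its 6 values were both in ATM KO. Mrps7, which lies in the head near the exit site of tRNA, was at 2573, 1278 and 1236 and at 1436, 2059 and 706 (-0.32, SE 0.47). Its swing followed the common order, vector control 1 first and ATM KO 3 last. Mrps2 was at 1411, 681 and 638 and at 930.0, 1261 and 658 (0.11, SE 0.39), and Mrps27, an RNA-binding pentatricopeptide repeat protein, at 1924, 1103 and 1088 and at 1091, 1637 and 1003 (-0.12, SE 0.31).

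Mammals have 3 mitochondrial proteins related to 1 bacterial small-subunit protein, Mrps18a, Mrps18b and Mrps18c, of which Mrps18a sits in the large subunit. Mrps18b varied most, at 944, 385 and 377 in the controls and at 554, 661 and 252 in ATM KO, a range of 3.74-fold. Mrps18a, at 1179, 650.1 and 718 and at 848, 1039 and 655, and Mrps18c, at 653, 398 and 403 and at 419, 521 and 407, ranged 1.81-fold and 1.64-fold. Vector control 1 was highest and ATM KO 2 second for all 3 paralogs. The log2 differences were 0.02 (SE 0.30) for Mrps18a, -0.19 (SE 0.51) for Mrps18b and -0.08 (SE 0.27) for Mrps18c.

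Mrps24, a small-subunit protein at the messenger RNA entry, had the lowest log2 difference of the small subunit, -0.42 (SE 0.33). Its values were 1026, 629.8 and 665 in the controls, against 691, 697 and 372 in ATM KO. Only ATM KO 3 was below the controls. Mrps30, which sits in the large subunit, was at 1571, 1078 and 1119 and at 807, 1279.7 and 948 (-0.32, SE 0.25), with its lowest value in ATM KO 1 rather than ATM KO 3. Mrps33 was low throughout, at 35, 41.6 and 45.2 and at 35.1, 36.1 and 29.4. Mrps36, the dehydrogenase subunit, was at 32.1, 24.2 and 26.3 and at 28.2, 42.4 and 28.2, and its difference of 0.23 (SE 0.36) was the second highest of the 75.

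Not every gene moved with the set. Mrps15, whose bacterial counterpart binds ribosomal RNA early in assembly, was at 911, 842 and 845 in the controls and at 774, 935 and 854 in ATM KO, a range of 1.21-fold that was the narrowest of the 75. Vector control 1 was below both other controls for 6 of 75 genes, looked up after their values were seen: Mrpl14, Mrpl24, Mrps16, Mrps21, Mrps33 and the pseudogene. Mrpl24, whose bacterial counterpart also starts assembly of the large subunit, was at 1513, 1999 and 2016 and at 1912, 1678 and 1798. Its values ran opposite to the set in vector control 1 and in ATM KO 2, and its correlation with the mean of the others was -0.73 over the 6 libraries.

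The genes lie on 17 chromosomes, with 10 on chromosome 11 and 8 on chromosome 17. A coding start on the opposite strand lay within 1000 bases upstream of the start, without overlap, for 17 of 74 coding genes (23%), against 1279 of 11842 listed coding genes (10.8%). Mrpl46 and Mrps11, not counted there, lie head to head with exons that overlap by 173 bases on chromosome 7. Mrpl46 was at 619, 353 and 313 in the controls and at 402, 496 and 228 in ATM KO, and Mrps11 was at 469, 201 and 171 and at 265, 403 and 138. The order of the 6 libraries was the same in both genes, and reads from the overlap cannot be told apart without strand. Exons of 26 of the 76 genes (34.2%) overlapped another gene on the opposite strand. Reads were hardest to assign for Mrps34 and Mrps25, of whose 50-base stretches 71.8% and 68.2% occur in another gene.

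Other genes of mitochondrial translation had similar library profiles. The 6 mitochondrial ribosomal proteins with other symbols had 5 differences below 0 and a median of -0.10. Dap3, a GTP-binding protein of the small subunit, was at 2824, 3406 and 3372 in the controls and at 2502, 2729 and 2306 in ATM KO, groups that did not overlap (log2 difference -0.35, SE 0.15, DESeq2 adjusted p 0.790). Vector control 1 was the lowest of its controls, against the common swing. Ptcd3, a small-subunit pentatricopeptide repeat protein, was at 3472, 2083 and 2060.3 and at 2223, 3417 and 1830.1, which followed the common swing.

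Assembly and rRNA maturation factors had 20 of 27 below 0 (median -0.12). A list of translation factors, drawn broadly enough to hold Letm1, had 11 of 16 (-0.14). Mitochondrial aminoacyl-tRNA synthetases, listed with Gatc and Qrsl1, which are not synthetases, had 16 of 21 (-0.20). None of these passed any of the 3 tests. Their median deviations in vector control 1 were 0.34, 0.29 and 0.41 and in ATM KO 3 -0.36, -0.30 and -0.39, beside 0.51 and -0.42 for the mitochondrial ribosomal proteins. In the same order by mean level the leading genes were Dhx30 and Noa1, Gfm1 and Lrpprc, and Kars and Gars. Kars and Gars also encode the cytosolic enzymes, so their level is not one of mitochondrial translation alone. Gfm1, the mitochondrial elongation factor G, was at 5435, 2216 and 2195 and at 2357, 3334 and 1453, again highest in vector control 1 and lowest in ATM KO 3.

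Cytosolic ribosomal proteins and nuclear-encoded respiratory chain subunits swung less between the controls. The 75 tested cytosolic ribosomal protein genes deviated by 0.09, 0.05 and 0.14 in vector controls 1 to 3 and by -0.12, 0.03 and -0.18 in ATM KO, and 50 of 75 were below 0 with a median of -0.14. The 72 tested respiratory chain subunits deviated by 0.14, 0.04 and 0.07 and by -0.01, 0.14 and -0.34, and 59 of 72 were below 0 with a median of -0.13. The median SD within the controls was 0.23 and 0.16, against 0.39 for the mitochondrial ribosomal proteins. The 2814 tested coding genes with the shortest exon length deviated by 0.10 in vector control 1, against -0.10 in ATM KO 3.

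Between the groups, the ribosome's RNA partners ran otherwise. The 2 ribosomal RNAs of mitochondrial DNA, mt-Rnr1 and mt-Rnr2, had log2 differences of 0.44 (SE 0.28) and 1.09 (SE 0.29). For mt-Rnr1 the controls were at 5445, 4022 and 2620 and ATM KO was at 5061, 6084 and 4614, so the groups overlapped. For mt-Rnr2 the controls were at 22626, 12816 and 10984 and ATM KO was at 28561, 36239 and 29826, so that every ATM KO library was above every control. All 9 mitochondrially encoded RNAs tested had differences above 0, with a median of 0.96. Only mt-Nd6, a subunit of complex I, passed a test (DESeq2 adjusted p 0.043), at 5476, 5816 and 5347 in the controls and at 7348, 8726 and 8051 in ATM KO. Within the controls the mitochondrially encoded RNAs swung the same way as the ribosomal proteins, with median deviations of 0.14, -0.73 and -0.97 in vector controls 1 to 3. In ATM KO 1 to 3 they deviated by 0.43, 0.39 and 0.55. As a list they were thus highest in ATM KO 3, where the nuclear-encoded ribosomal proteins were lowest. The 2 ribosomal RNAs and mt-Nd6 were instead highest in ATM KO 2, and mt-Nd1 was highest in vector control 1. The rest were highest in ATM KO 3. Of the ATM KO libraries, ATM KO 3 held the lowest value of mt-Rnr1. Whether less RNA per cell or a different mix of cells lies behind a level cannot be told apart in bulk libraries.

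**Figure D5:**
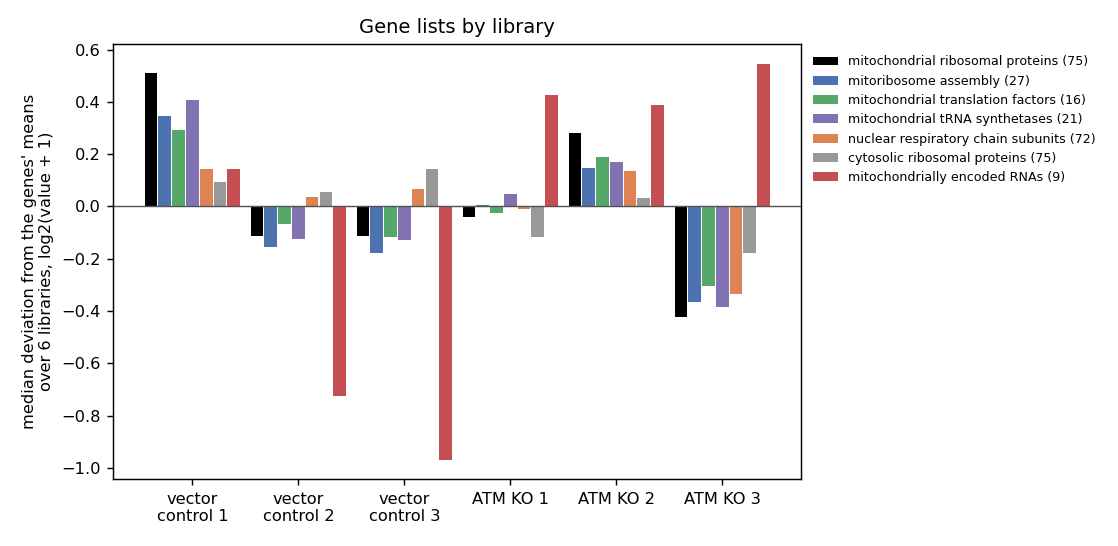
Median deviation of the genes of 7 lists from their own means over the 6 libraries, in log2 units (y axis), by library (x axis), with the number of genes tested in brackets. The mitochondrial ribosomal proteins (black) reach 0.51 in vector control 1, against -0.42 in ATM KO 3, where the mitochondrially encoded RNAs (red) are at 0.55.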

How the data were processed

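RNA-seq of 3 vector control and 3 ATM KO libraries was used, and groups were taken from the sample titles. In the submitters' processing notes the tools STAR, HTSeq, DESeq2, SAMtools, cutadapt and Trim Galore and the builds GRCm38 and mm9 appear, without versions or roles. Each deposited file gives 1 signal per gene, a read count scaled by the authors with a single factor for the library. The values show this: 100% were whole multiples of a fixed step within 0.01 reads. Strand use in counting is not stated in the sources.

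Genes with a mean of at least 10 over the 6 libraries were tested on log2(value + 1), a scale that understates changes of low genes, with limma 3.58.1 in R 4.3.3 (2-sided, empirical Bayes, variance trend on the mean) and Benjamini-Hochberg adjustment over all 12149 tested genes at a threshold of 0.05. The recovered reads were also tested with edgeR 4.0.16 (quasi-likelihood) and DESeq2 1.42.0. The scripts were tested on simulated data. Lists are described by counts and medians only. The genes and lists were chosen with earlier results of these data known. Genes named singly are a panel chosen by ribosomal role, the 4 highest and 4 lowest differences, the 3 widest and 3 narrowest spreads within groups, the 3 highest and 3 lowest levels per kilobase, and any gene that failed the filter or passed a test; from other lists, genes that passed a test and otherwise the 2 with the highest means, with further genes named for their values. Positions and exon lengths come from GENCODE M21 (75 of 76 IDs matched) and promoters from RefSeq on GRCm38.p6. Alternatives covered the pseudocount, filter, scaling, test, replicate block and libraries left out.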

Additional observations from a re-analysis of the deposited data

How the results depend on the processing

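No mitochondrial ribosomal protein gene was called under any alternative run. Over all genes limma and edgeR called 0 and DESeq2 called 84. Leaving out each library in turn, the genes below 0 ranged from 31 to 72 of 75, the median from -0.37 to 0.04 (large subunit -0.39 to 0.04, small subunit -0.34 to 0.06), and genes whose groups did not overlap from 6 to 17 lower and from 0 to 6 higher. The low counts came without vector control 1 and without ATM KO 3. Leaving out vector control 1 and ATM KO 2 together gave 22 lower and 6 higher, beside 27.2% and 26.7% of all genes, and a median of -0.14. Other settings kept 60 to 71 genes below 0.

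The replicate numbers did not pair the libraries: deviations of same-numbered libraries correlated at -0.02, -0.58 and 0.53. The fit with the number as a replicate block called 0 genes and kept the median at -0.17, and the genes with an unadjusted p under 0.05 went from 505 to 296.

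Signs changed for small and for some of the larger differences. With reads scaled to the library total the log2 difference was 0.019 for Mrpl44, 0.024 for Mrps12 and 0.014 for Mrps15. Mrps12 was at 0.035 with edgeR and 0.040 with DESeq2, and Mrps18a at -0.0048 and -0.0013. Without vector control 1 and ATM KO 2, Mrpl11 was at 0.041, Mrpl3 at 0.13, Mrpl44 at 0.13 and Mrps18c at 0.044. With vector controls 2 and 3 averaged, Mrpl20 was at -0.0043, Mrps18a at -0.11 and Mrps2 at -0.073. Leaving out single libraries, the range was -0.39 to 0.15 for Mrpl10, -0.18 to 0.12 for Mrpl11, -0.79 to 0.23 for Mrpl12, -0.41 to 0.056 for Mrpl13, -0.76 to 0.26 for Mrpl16 and -0.033 to 1.13 for Mrpl20. It was -0.31 to 0.30 for Mrpl3, -0.48 to 0.17 for Mrpl42, -0.14 to 0.21 for Mrpl44, -0.22 to 0.29 for Mrps12, -0.090 to 0.046 for Mrps15 and -0.14 to 0.29 for Mrps18a. It was -0.46 to 0.25 for Mrps18b, -0.20 to 0.16 for Mrps18c, -0.12 to 0.48 for Mrps2, -0.34 to 0.15 for Mrps27 and -0.66 to 0.11 for Mrps7. The cause of these changes was not tested.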
